A study of Mus musculus with 12 samples.

Results

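The genes described here are 34 genes of actin filaments and of the contractile machinery that pulls on them, listed by gene symbol and measured in the mouse preosteoblast line MC3T3-E1 subclone 14, which was derived from calvaria. The list was set by gene function, with earlier results of these data known. All 34 symbols were found among the 52654 genes counted in every library, and 32 of them had enough counts to be tested. The 12 libraries were made from total RNA of cells grown for 7 days on titanium discs, in medium that held 5 µg/mL ascorbic acid and β-glycerophosphate at 7 mM to drive osteogenesis. There were 4 groups of 3 libraries: co-culture on nanotopography, isolated cells on nanotopography, co-culture on control titanium and isolated cells on control titanium. In the co-cultures, osteoclasts derived from RAW 264.7 macrophages with 50 ng/mL RANKL shared the medium for the last 2 days from inserts with 0.4 µm pores. The contrast of co-culture with isolated cells, called the osteoclast effect below, joins osteoclasts, RANKL, the insert and the shared medium, which cannot be told apart because RANKL and inserts are recorded for the co-cultures alone. All groups came from the same subclone, and the series labels call the 3 libraries of a group biological triplicates without saying whether they were separate cultures started on separate days, so p-values measure the spread between these libraries.

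Actin monomers assemble into filaments, which profilin helps to build and cofilin to sever. Non-muscle myosin II slides filaments past each other when its regulatory light chain is phosphorylated, and the small GTPase RhoA promotes this through the kinases encoded by Rock1 and Rock2 while promoting filament growth through the formin encoded by Diaph1. Free actin monomers hold the coactivator MRTF in the cytoplasm. When monomers are used up, MRTF enters the nucleus and works with the serum response factor SRF at a promoter motif called the CArG box, and many genes of actin, transgelin, calponin and myosin light chains are known targets of this pair. In osteoblasts the actin cytoskeleton is known to carry tension from the surface to which the cells adhere.

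Total counts per library were 5866842 to 9207831 over the genes used, and the 34 genes together took 1.25 to 1.83% of them. On the leading principal component, which held 55.4% of the variance between libraries, the 3 libraries of co-culture on nanotopography sat at the low end, at -74.1 to -44.5, and the 3 of isolated cells on nanotopography at the high end, at 26.1 to 54.3. Differences between these groups followed the GC content of the genes, with values given below. Replicate 1 of co-culture on nanotopography was the farthest out, and mitochondrial ribosomal RNA took 15.8% of its counts. Over the groups this share was 8.66 to 15.8% in co-culture on nanotopography, against 4.52 to 6.35% in isolated cells on nanotopography, and 6.15 to 6.73% in co-culture on control titanium, against 6.70 to 9.80% in isolated cells on control titanium. The gene models Gm26917 and Gm42418, which are known to collect ribosomal RNA reads, together took 0.350 to 0.800% in co-culture on nanotopography, against 3.66 to 8.33% in isolated cells on nanotopography, and 1.52 to 2.08% in co-culture on control titanium, against 2.77 to 5.46% in isolated cells on control titanium. The part of these shares in the results was not tested. Counts of called members and the main values below are also given "GC-adjusted", from a fit in which the trend of each library with GC content and transcript length was removed. Whether that adjustment also removes true changes was not tested. All 10 osteoblast markers examined, among them Col1a1, Runx2 and Sp7, had counts in every group. Their summed level was 28910 to 36920 CPM in co-culture on nanotopography, against 53040 to 58160 CPM in isolated cells on nanotopography, and 45460 to 53250 CPM in co-culture on control titanium, against 51860 to 63820 CPM in isolated cells on control titanium. Col1a1 and Ibsp made up most of each sum, so the sums say little of the other markers. On nanotopography, Col1a1 had 502421 counts in co-culture, against 841402 in isolated cells. Runx2 had 7275 counts in co-culture there, against 6269 in isolated cells. These counts are not scaled by library totals. On nanotopography the sums did not overlap, and their part in the members' results was not tested.

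Isolated cells on control titanium give the level from which the comparisons start. Per kilobase of transcript, the most abundant member by far was Actb, the cytoplasmic β-actin, at 2068 ± 409 CPM (counts scaled by library total) per kilobase (SD, n = 3). Tpm1 and Tpm4, tropomyosins that coat the filament, followed at 423 ± 3.60 and 408 ± 27.3 CPM per kilobase, then Cald1 (caldesmon) at 335 ± 29.3, Pfn1 (profilin) at 328 ± 41.3 and Acta2, the smooth muscle α-actin, at 291 ± 74.3 CPM per kilobase. The SDs of Tpm1 and Tpm4 overlap, as do those of Cald1, Pfn1 and Acta2, so the order within these sets is not resolved. At the low end stood Actg1 at 4.35 ± 0.0940, Lmod1 at 4.26 ± 0.523, Myl12b at 1.23 ± 0.666 and Acta1, the skeletal muscle α-actin, at 0.203 ± 0.174 CPM per kilobase. The cardiac α-actin Actc1 had 0 counts over the 3 libraries of isolated cells on control titanium, where 3 counts would correspond to 0.135 CPM. Cnn1, a calponin of smooth muscle, had 1 count there.

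Several of these levels depend on how reads were assigned. In the annotation, 8 members shared more than 20% of their 50-base words with other genes: Tpm3 shared 62.4%, Actg1 56.7%, Tagln 48.3%, Myl12b 33.0%, Cnn3 30.3%, Myl12a 29.6%, Rhoa 25.1% and Cfl1 23.0%. Partners included Tpm3-rs7 for Tpm3, Gm12715 and Actg-ps1 for Actg1, Gm48529 and Pcsk7 for Tagln and, for Myl12a and Myl12b, each other. Reads from such stretches may have been dropped or split, so the low level of Actg1, a gene of the second cytoplasmic actin, and the levels and changes of the others named here are uncertain. Exons of Cfl1, Cnn3, Mylk, Rhoa, Tagln, Tpm4 and Myl12a overlap genes on the opposite strand, and without a stated strand setting reads of such partners cannot be told apart.

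CArG boxes stood in the promoters of several members, and their sequences are shown because SRF, which binds the motif, is itself a member. RefSeq promoters of build GRCm38.p6, running from 250 bases before the start to 50 after it, were matched by symbol for 29 of the 34 members. Actb, Actg2, Tagln, Rock1 and Diaph1 had no entry. An exact CArG box on either strand was found in 7 of the 29 members (24.1%), against 488 of all 27025 genes with a promoter (1.81%). A match describes letters and not binding. The 150 bases before the start are given for Acta1, Srf and Acta2, 5′ to 3′ on the gene's strand, with the box in capitals. Positions count from the start of the promoter entry, with -1 as the base before it. For Acta1, Srf and Acta2 that start is not the same base as the gene's 5′ end in the annotation used for the counts. Both marked stretches of Acta2 lie within its annotated gene. In Acta1 the box begins at -73, and in Srf a pair of boxes begins at -82 and -62. Acta2 holds no exact box in this window, and its capitals mark 2 stretches that are 1 letter away from a box, beginning at -84 and -34. A stretch that close, or an exact box, occurs in 21.1% of all 32851 promoters. Acta1 is read from chr8:123894776-123894925, Srf from chr17:46556163-46556312 and Acta2 from chr19:34255374-34255523, all on the minus strand.
Acta1: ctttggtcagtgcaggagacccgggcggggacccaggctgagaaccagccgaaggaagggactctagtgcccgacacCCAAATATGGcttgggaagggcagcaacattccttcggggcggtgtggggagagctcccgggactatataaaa
Srf: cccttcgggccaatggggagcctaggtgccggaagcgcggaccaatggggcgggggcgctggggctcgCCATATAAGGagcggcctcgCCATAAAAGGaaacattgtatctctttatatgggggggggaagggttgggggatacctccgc
Acta2: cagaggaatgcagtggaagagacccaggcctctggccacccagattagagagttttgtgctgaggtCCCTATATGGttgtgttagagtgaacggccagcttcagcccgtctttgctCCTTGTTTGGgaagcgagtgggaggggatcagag

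The other 5 members with an exact box are shown as 50 bases around it. Of the 2 promoter entries of Myl6, the one nearer the annotated 5′ end of the gene holds no exact box. The boxes shown for Myl6 and Actc1 lie within the annotated genes. The box begins at -161 in Myl9 (chr2:156775283-156775332, plus strand), -50 in Myl6 (chr10:128493030-128493079, minus strand), -56 in Cnn2 (chr10:79988524-79988573, plus strand), -90 in Actg1 (chr11:120348556-120348605, minus strand) and -47 in Actc1 (chr2:114052893-114052942, minus strand).
Myl9: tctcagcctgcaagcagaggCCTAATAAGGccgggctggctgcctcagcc
Myl6: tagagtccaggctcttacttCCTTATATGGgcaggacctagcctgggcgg
Cnn2: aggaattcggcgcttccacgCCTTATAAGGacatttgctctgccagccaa
Actg1: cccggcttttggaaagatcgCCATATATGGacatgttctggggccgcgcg
Actc1: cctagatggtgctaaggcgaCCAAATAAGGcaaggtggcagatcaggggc

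On control titanium, the muscle-type actins and several other contractile genes were higher with osteoclasts than without. Of the 32 tested members, 13 rose and 1 fell (edgeR quasi-likelihood test, Benjamini-Hochberg adjusted p below 0.05 over all 13340 genes tested), while 10.9% of all tested genes were called higher and 8.72% lower. The members' median log2 fold change was 0.26, against -0.02 over all tested genes. GC-adjusted, 14 members were called higher and 4 lower, against 15.5% and 12% of all genes, and the 14 calls above were all made again in the same direction. In bulk RNA, more cells with a transcript and more transcript per cell cannot be told apart.

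**Figure D1:**
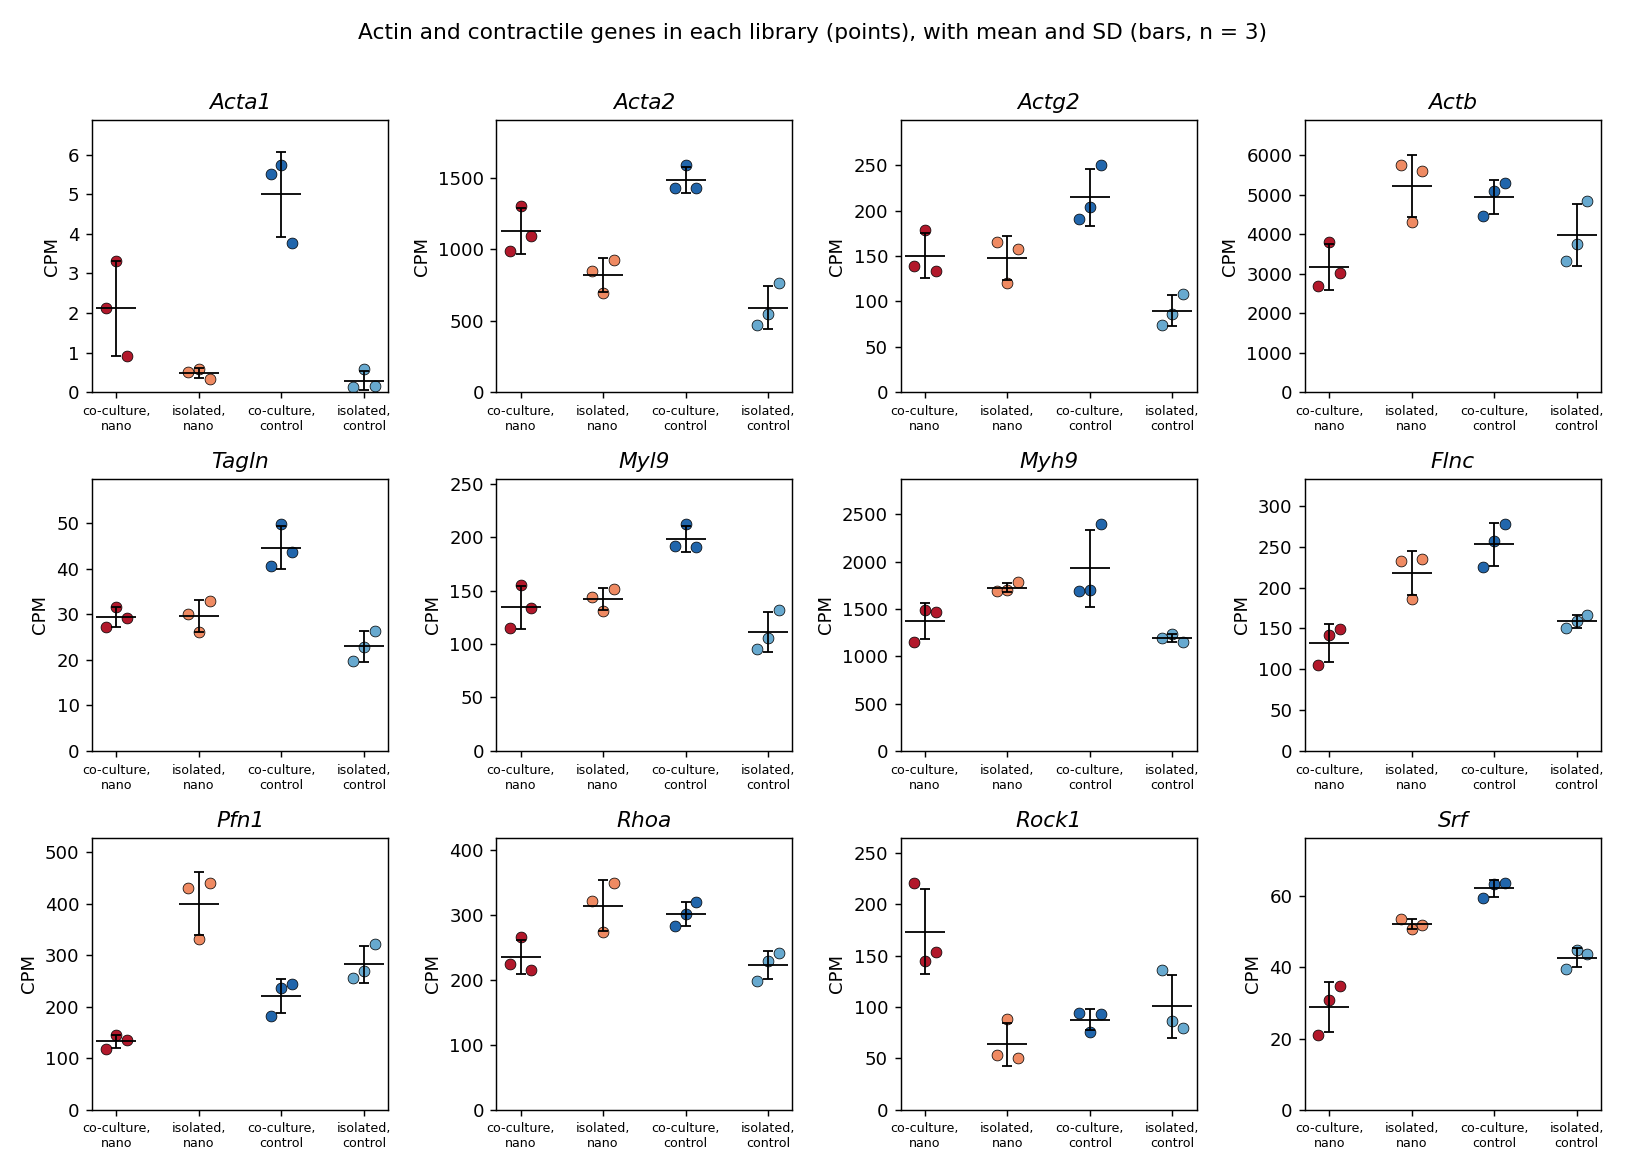
Level in CPM (vertical axis, from 0) of 12 members in each library (points), for the 4 groups along the horizontal axis, with a line at the mean and a bar of 1 SD (n = 3). Acta1, Acta2, Actg2, Tagln and Myl9 are highest in co-culture on control titanium, while Rock1 is highest and Srf and Pfn1 are lowest in co-culture on nanotopography.

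Among the actins, 3 of 5 tested members rose on control titanium. Acta2 (ENSMUSG00000035783, chr19:34241090-34255590, minus strand) had 1427, 1585 and 1428 CPM in the co-cultures, against 468, 546 and 761 CPM in isolated cells, with no overlap of the groups. That is a fold change of 2.50 (log2 fold change 1.32 ± 0.16 SE, edgeR adjusted p = 2.31e-05), and 1.30 on the log2 scale after GC adjustment. Actg2, the enteric smooth muscle γ-actin (ENSMUSG00000059430, chr6:83512905-83536265, minus strand), had 190, 204 and 250 CPM in co-culture, against 74.5, 86.2 and 108 CPM in isolated cells. Its groups did not overlap either, and its log2 fold change was 1.26 ± 0.16 (edgeR adjusted p = 3.95e-05), or 1.22 GC-adjusted. Acta1 (ENSMUSG00000031972, chr8:123891769-123894751, minus strand) had 5.52, 5.73 and 3.77 CPM in co-culture, against 0.131, 0.583 and 0.168 CPM in isolated cells. Its log2 fold change of 3.93 ± 0.51 (edgeR adjusted p = 4.81e-05) rests on 117 counts in the 3 co-culture libraries and 7 counts in the 3 isolated ones, and was 3.92 GC-adjusted.

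The cytoplasmic actins behaved differently in the test. Actb (ENSMUSG00000029580, chr5:142903115-142906754, minus strand) had 4460, 5090 and 5287 CPM in co-culture, against 3314, 3756 and 4841 CPM in isolated cells, and these ranges overlap. Its log2 fold change of 0.32 ± 0.16 did not pass the test (edgeR adjusted p = 0.163). Actg1 had 11.4, 12.2 and 8.74 CPM in co-culture, against 8.61, 8.28 and 8.58 CPM in isolated cells. Its groups did not overlap, though narrowly, and its log2 fold change of 0.35 ± 0.21 did not pass the test (edgeR adjusted p = 0.268). Actc1 was at 3 counts in the co-cultures and 0 in isolated cells, too few for a fold. Cnn1 had 12 counts in co-culture and 1 in isolated cells, a ratio of 11.6 with a 95% counting interval of 1.71 to 494, which covers counting error only.

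Of the 7 tested myosin genes, 3 rose on control titanium. They were Myl9, the regulatory light chain typical of smooth muscle (log2 fold change 0.84 ± 0.13), Myh9, the heavy chain of non-muscle myosin IIA (0.69 ± 0.13), and Myl6, the essential light chain (0.35 ± 0.11). GC-adjusted these were 0.83, 0.58 and 0.29. The heavy chain of myosin IIB, Myh10, had a log2 fold change of 0.15 ± 0.12 and the light chain kinase Mylk of 0.19 ± 0.10, and neither passed the test. Myl12a and Myl12b, the other regulatory light chains, were at 0.09 ± 0.10 and -0.30 ± 0.37 and were not called.

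Of the 10 tested members that bind along the thin filament, Tagln and Tpm2 rose. Tagln, which encodes transgelin and is a standard SRF target, had 40.6, 49.8 and 43.6 CPM in co-culture, against 19.7, 22.7 and 26.4 CPM in isolated cells. The groups were apart, with a log2 fold change of 0.96 ± 0.14 (edgeR adjusted p = 0.000109), or 0.91 GC-adjusted. Tpm2, β-tropomyosin, had a log2 fold change of 0.61 ± 0.14. The other tropomyosins were not called, at log2 fold changes of -0.02 for Tpm1, -0.28 for Tpm3 and -0.28 for Tpm4. After GC adjustment Tpm3 and Tpm4 were called lower, both with log2 fold changes from -0.29 to -0.23, and Cnn2 higher, at 0.26.

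Both filamins, which cross-link actin filaments, rose on control titanium: Flnc by a log2 fold change of 0.68 ± 0.13 and Flna by 0.45 ± 0.14. Cfl1 (cofilin) and Pfn1 did not pass the test, at -0.03 ± 0.11 and -0.35 ± 0.14, though Pfn1 was called lower after GC adjustment, at -0.37. Of the regulators, Rhoa, Diaph1 and Srf rose and Rhob, which encodes a small GTPase of endosomes, fell by 0.66 on the log2 scale. Srf (ENSMUSG00000015605, chr17:46548329-46556175, minus strand) had 59.6, 63.3 and 63.7 CPM in co-culture, against 39.7, 44.9 and 43.7 CPM in isolated cells. The libraries did not overlap, and the log2 fold change was 0.54 ± 0.14 (edgeR adjusted p = 0.0111), or 0.99 GC-adjusted. The kinase genes Rock1 and Rock2 were not called, at -0.20 ± 0.22 and 0.04 ± 0.20.

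Of the 7 members with an exact CArG box, Acta1, Myl9, Myl6 and Srf were among those that rose on control titanium. They make up 4 of the 10 risen members with a promoter entry, while 2 of the 16 members not called held a box. Myl6 is counted through 1 of its 2 promoter entries. Leaving out replicate 1 of isolated cells on control titanium reduced the 14 calls to 9, since Diaph1, Flna, Myl6, Rhoa and Srf then had edgeR adjusted p-values of 0.0612, 0.133, 0.128, 0.0827 and 0.0534. The calls of Flna were also lost without replicate 2 or 3 of co-culture or replicate 2 of isolated cells, and that of Myl6 without replicate 2 of either.

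**Figure D2:**
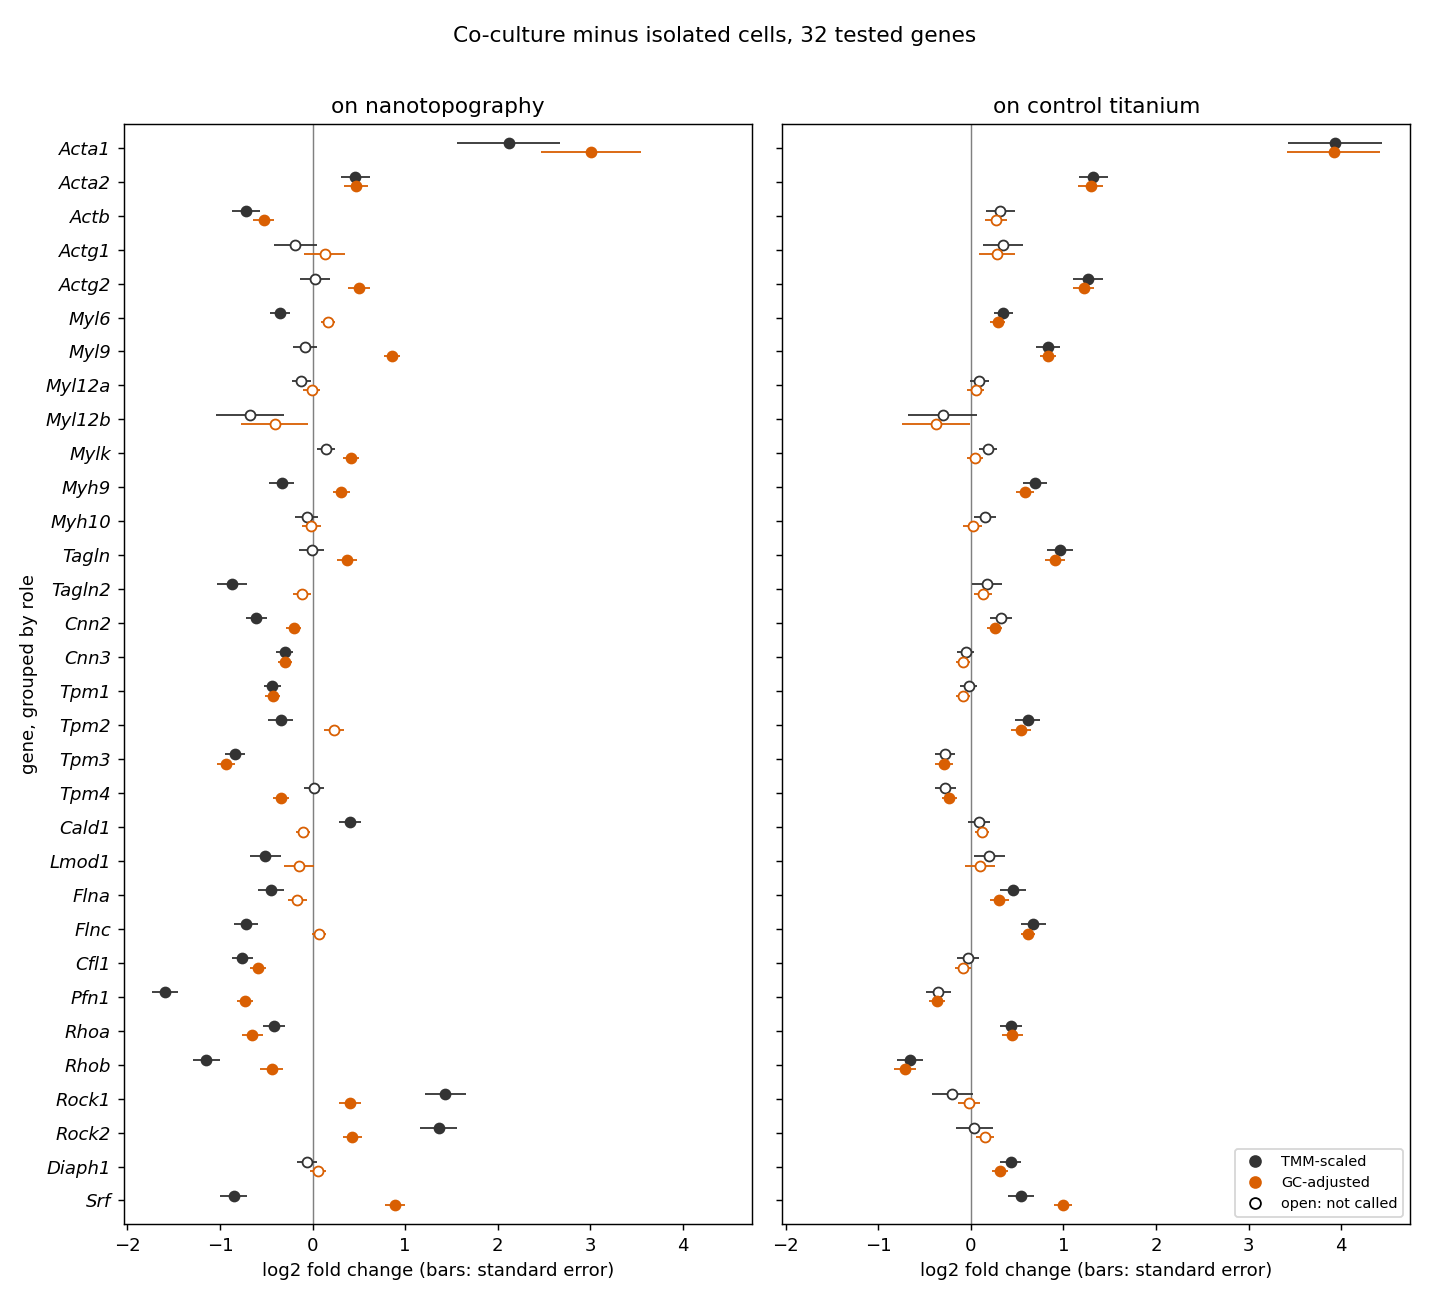
Log2 fold change of co-culture against isolated cells for each tested member on nanotopography and on control titanium, with bars of 1 SE, before and after GC adjustment. Filled points are called and open ones are not. On control titanium both fits place Acta1, Acta2 and Actg2 furthest to the right. On nanotopography the fits place Srf and Myl9 apart, with Srf at -0.85 before and 0.89 after adjustment.

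On nanotopography, more members were lower with osteoclasts than higher, and for several the direction depended on the GC adjustment. Of the 32 members, 5 were called higher and 17 lower, while 28.7% of all tested genes were called higher and 30.4% lower. The members' median log2 fold change was -0.34, against 0.00 over all genes. GC-adjusted, 10 were called higher and 10 lower, against 17.6% and 20.8% of all genes, with a median of -0.01. The calls that held in the same direction in both fits were higher Acta1, Acta2, Rock1 and Rock2 and lower Actb, Cfl1, Cnn2, Cnn3, Pfn1, Rhoa, Rhob, Tpm1 and Tpm3. Myh9 and Srf were called in opposite directions.

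Acta1 and Acta2 rose here too, by smaller estimates. Acta1 had 2.13, 3.31 and 0.913 CPM in co-culture on nanotopography, against 0.506, 0.589 and 0.340 CPM in isolated cells on nanotopography. All co-culture libraries were above all isolated ones, with a log2 fold change of 2.12 ± 0.56 (edgeR adjusted p = 0.00355) from 47 and 9 counts, or 3.01 GC-adjusted. Acta2 had a log2 fold change of 0.46 ± 0.16, 0.47 after adjustment. Actg2 was at 0.03 ± 0.16 and was not called, though GC-adjusted it was called higher at 0.50. Of Actc1, 1 count was seen in co-culture and 3 in isolated cells, and of Cnn1 3 and 1.

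Actb had 2676, 3807 and 3021 CPM in co-culture on nanotopography, against 5740, 4304 and 5594 CPM in isolated cells on nanotopography, and the groups did not overlap. Its log2 fold change was -0.72 ± 0.16 (edgeR adjusted p = 0.000865) and -0.53 after GC adjustment. Actg1 had 4.97, 5.73 and 8.67 CPM in co-culture, against 8.93, 5.59 and 7.49 CPM in isolated cells. Those ranges overlap, and its log2 fold change of -0.18 ± 0.24 did not pass the test (edgeR adjusted p = 0.514).

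Pfn1, whose product delivers actin monomers to growing filament ends, had the lowest log2 fold change of the members before GC adjustment. It had 119, 144 and 135 CPM in co-culture, against 430, 331 and 440.0 CPM in isolated cells on nanotopography, with no overlap. The fold was 0.332 (log2 fold change -1.59 ± 0.14, edgeR adjusted p = 1.59e-07), and the GC-adjusted log2 fold change was -0.73. Rhob fell by 1.15 on the log2 scale before adjustment and by 0.44 after it, and Cfl1 by 0.76 and 0.59. Tpm3 fell by 0.84 and 0.94, the lowest log2 fold change of the members after adjustment. Flnc was lower before adjustment at -0.72 ± 0.13 and at 0.07 after it, where it was not called.

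The kinase genes Rock1 and Rock2 moved the other way. Rock1 had 221, 145 and 154 CPM in co-culture, against 53.1, 88.0 and 50.2 CPM in isolated cells on nanotopography. Rock2 had 520.0, 369 and 398 CPM in co-culture, against 124, 232 and 144 CPM in isolated cells. Neither gene's groups overlapped, and the log2 fold changes were 1.44 ± 0.22 for Rock1 and 1.36 ± 0.20 for Rock2 (edgeR adjusted p = 4.3e-05 and 2.46e-05). Both shrank to 0.41 and 0.43 after GC adjustment and stayed called. They are the members with the lowest GC content, 40.2% and 41.4%.

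Srf shows the other extreme, since its GC content of 64.4% is the highest among the members. It had 21, 30.9 and 34.8 CPM in co-culture on nanotopography, against 53.8, 50.9 and 52.1 CPM in isolated cells on nanotopography, with no overlap. Its log2 fold change was -0.85 ± 0.14 (edgeR adjusted p = 8.72e-05) before adjustment and 0.89 (adjusted p = 2.01e-06) after it. Myh9 likewise was called lower at -0.33 ± 0.13 before and higher at 0.31 after, and Myl9, Tagln and Mylk, like Actg2, were called higher after adjustment but not before it, at 0.86, 0.37 and 0.42. Over all tested genes, the median log2 fold change in this comparison ran from 1.08 among the 884 genes of up to 40% GC to -1.31 among the 549 genes above 60%. The 7 members of 45 to 50% GC had a median of -0.30, beside 0.17 for all 3583 genes of that class. The 14 members of 50 to 55% had -0.27, beside -0.31 for 3292 genes, and the 8 members of 55 to 60% had -0.53, beside -0.81 for 2369 genes.

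**Figure D3:**
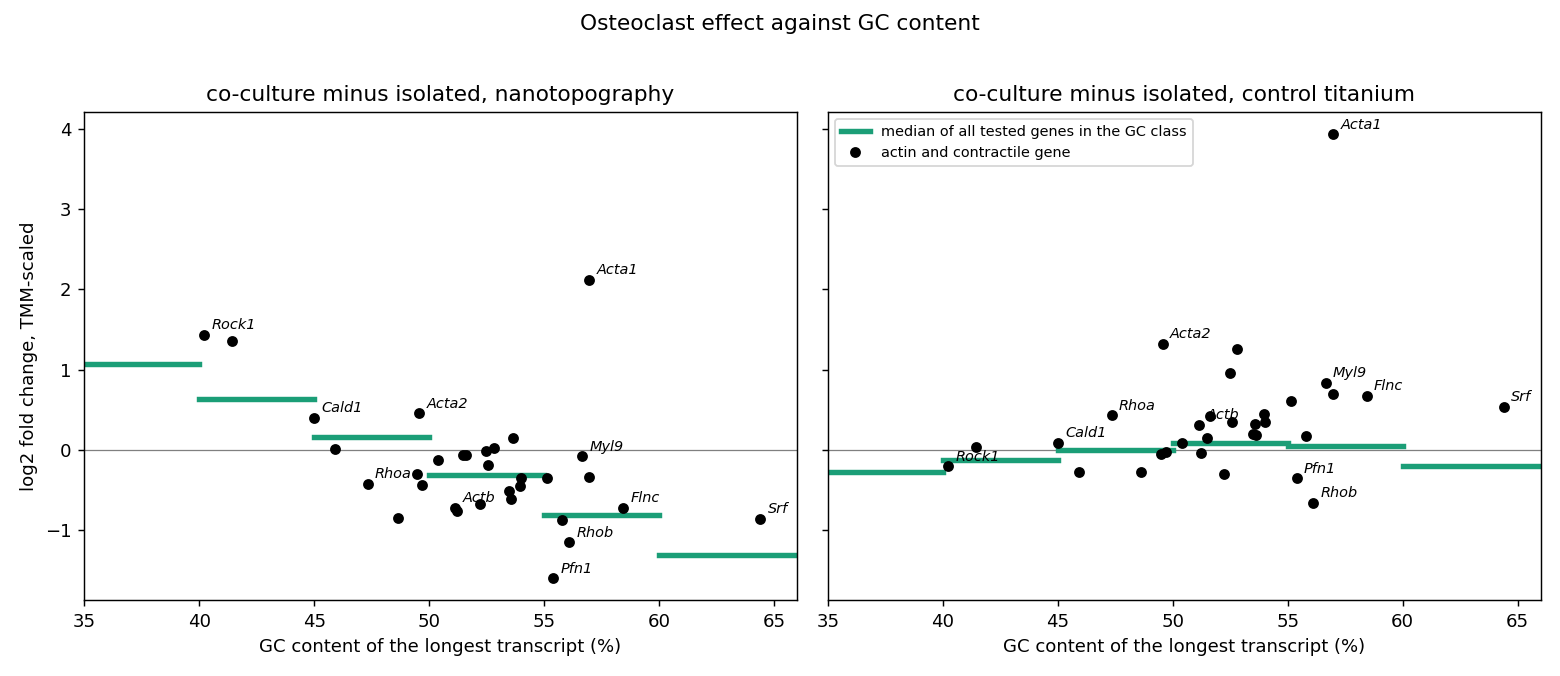
Log2 fold change of co-culture against isolated cells plotted over the GC content of the longest transcript in percent, with members as points and the median of all tested genes in each GC class as a horizontal step, on nanotopography and on control titanium. On nanotopography the steps fall from 1.08 to -1.31 from low to high GC, with Rock1 at the upper left, Srf at the lower right and Acta1 far above its class, while on control titanium all class medians lie between -0.27 and 0.09.

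Of the 22 calls on nanotopography, 15 held whichever library was left out. Acta2, Cald1, Cnn3, Flna, Lmod1, Myh9 and Tpm2 lost their call in at least 1 of the 12 cases, and Acta2 did so without replicate 2 of co-culture (adjusted p = 0.0708) or of isolated cells (0.0589) on nanotopography.

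The osteoclast effect differed between the surfaces for most members. In a test of the difference itself (edgeR interaction term), 20 of 32 members had a lower osteoclast effect on nanotopography than on control titanium and 2 a higher one, while 25.4% of all tested genes were called lower and 22.4% higher. The members' median difference was -0.72 on the log2 scale, against -0.05 over all genes. GC-adjusted, 12 members were called lower and 1 higher, against 13% and 7.6% of all genes, with a median of -0.25. The 12 were Acta2, Actb, Actg2, Cfl1, Cnn2, Flna, Flnc, Pfn1, Rhoa, Tagln, Tpm1 and Tpm3, each of which was also called lower without the adjustment.

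Flnc, the filamin abundant in striated muscle, had the smallest p of the interaction. It had 106, 142 and 150 CPM in co-culture on nanotopography, against 232, 186 and 235 CPM in isolated cells on nanotopography, and 225, 257 and 278 CPM in co-culture on control titanium, against 151, 159 and 166 CPM in isolated cells on control titanium. Thus all co-culture libraries lay below all isolated ones on nanotopography and above them on control titanium. The difference was -1.39 ± 0.19 (edgeR adjusted p = 8.74e-05) and -0.55 (adjusted p = 0.00183) after GC adjustment.

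For Srf the difference was -1.39 ± 0.20 (edgeR adjusted p = 0.000122), but -0.10 (adjusted p = 0.673) after adjustment. Pfn1 had 183, 236 and 244 CPM in co-culture on control titanium, against 255, 269 and 322 CPM in isolated cells on control titanium, with the nanotopography values given above. Its difference was -1.24 ± 0.19 (edgeR adjusted p = 0.000226), and -0.36 (adjusted p = 0.0397) after adjustment. Among the actins, the difference was -0.86 ± 0.22 for Acta2, -1.24 ± 0.22 for Actg2 and -1.04 ± 0.22 for Actb, all called in both fits. For Acta1 it was -1.81 ± 0.89 and was not called (edgeR adjusted p = 0.103). Rhoa, which encodes the GTPase upstream of the kinases of Rock1 and Rock2, kept a negative difference in both fits, -0.85 ± 0.17 and -1.10. Rock1 and Rock2 had positive differences of 1.64 ± 0.31 and 1.32 ± 0.28 that were not called after adjustment.

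Comparing the surfaces in co-culture, most called members were lower on nanotopography than on control titanium. This comparison shares its libraries with those above. It gave 2 members called higher and 16 lower, while 18.6% of all tested genes were called higher and 23.3% lower, and the members' median log2 fold change was -0.37, against -0.02 over all genes. After GC adjustment 2 were called higher, Mylk and Myh10, and 6 lower, against 7.18% and 11% of all genes. The 6 were Actb, Cfl1, Cnn2, Flnc, Rhoa and Tagln, which were also called lower without adjustment.

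In co-culture, the Srf libraries given above ran from 21 to 34.8 CPM on nanotopography, against 59.6 to 63.7 CPM on control titanium. That is a log2 fold change of -1.11 ± 0.14 (edgeR adjusted p = 4.43e-05), and of -0.12 after adjustment, where it was not called. Flnc was lower by a log2 fold change of -0.94 ± 0.13 (edgeR adjusted p = 9.2e-05) and of -0.30 (adjusted p = 0.00961) after adjustment. Rock1 was higher at 0.98 ± 0.22 before adjustment and at 0.29 after it, no longer called, and Rock2 followed the same course, at 0.74 ± 0.20 and 0.11. Acta1 was at 0.913 to 3.31 CPM on nanotopography, against 3.77 to 5.73 CPM on control titanium, and its log2 fold change was -1.21 ± 0.36 (edgeR adjusted p = 0.0146). After adjustment it was -0.55 and not called.

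Actb fell in co-culture on nanotopography, by 0.64 on the log2 scale before and by 0.49 after adjustment, and its 2676 to 3807 CPM lay below the 4460 to 5287 CPM of co-culture on control titanium. Actg1 was called lower at -0.75 ± 0.22 before adjustment and not after it. Acta2, at -0.39 ± 0.16, did not pass the test (edgeR adjusted p = 0.0521). Of the 18 calls, 12 held in all 12 cases of leaving out a library, and those of Acta1, Actg1, Actg2, Flna, Myh9 and Rhoa did not, with adjusted p-values of up to 0.0976 for Rhoa.

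In isolated cells, all members called by edgeR for the surface were higher on nanotopography. Of the 32 members, 11 were called higher and 0 lower by edgeR, while 4.32% of all tested genes were called higher and 5.39% lower. At an unadjusted p below 0.05, 20 were higher and 2 lower, and DESeq2 called 14 higher and 2 lower. The 2 lower at an unadjusted p were Rock1 and Rock2, with log2 fold changes of -0.655 ± 0.223 and -0.587 ± 0.199. Their edgeR adjusted p-values were 0.0665 and 0.0646, and their GC-adjusted log2 fold changes were -0.144 and -0.165. Shares of all tested genes were not computed at an unadjusted p or for DESeq2. The members' median log2 fold change was 0.36, against 0.01 over all genes. GC-adjusted, 7 were called higher, against 3.19% of all genes, and 0 lower, against 1.48% of all genes, with 17 higher and 0 lower at an unadjusted p and a median of 0.24. These 7 were Actg2, Diaph1, Myh9, Rhoa, Tpm1, Tpm2 and Tpm3, called in both fits.

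**Figure D4:**
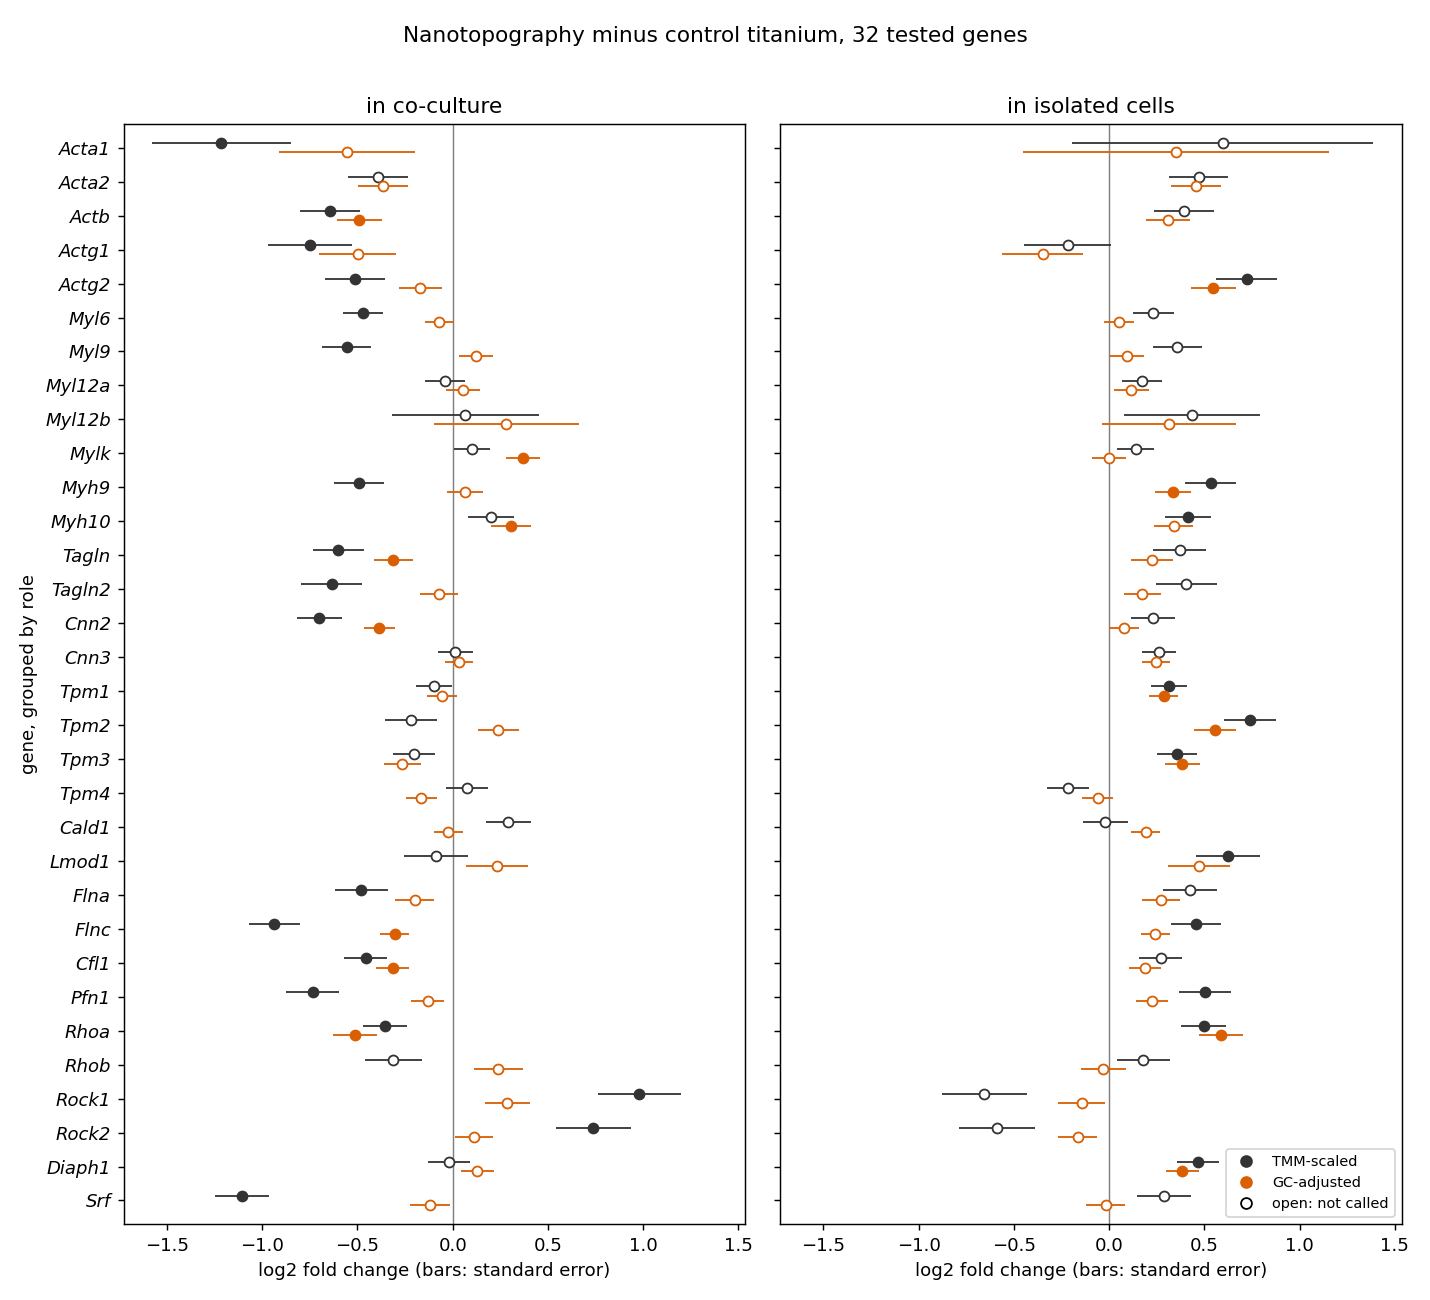
Log2 fold change of nanotopography against control titanium for each tested member in co-culture and in isolated cells, with bars of 1 SE, before and after GC adjustment. In isolated cells most members lie to the right of 0, led by Tpm2 at 0.74 and Actg2 at 0.72, and in co-culture most lie to the left before adjustment, with Srf at -1.11 and Flnc at -0.94.

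Tpm2 had 143, 160 and 153 CPM in isolated cells on nanotopography, against 88.5, 97.6 and 87.2 CPM in isolated cells on control titanium. The groups did not overlap, and the log2 fold change was 0.74 ± 0.14 (edgeR adjusted p = 0.0109), 0.56 after adjustment. Actg2 had 166, 120 and 158 CPM on nanotopography, against 74.5, 86.2 and 108 CPM on control titanium, with a log2 fold change of 0.72 ± 0.16 (edgeR adjusted p = 0.0199). Its groups were apart as well. Myh9 had 1695, 1702 and 1783 CPM on nanotopography, against 1193, 1232 and 1154 CPM on control titanium, a log2 fold change of 0.53 ± 0.13 (edgeR adjusted p = 0.0258) with a wide gap between the groups. Lmod1, whose product leiomodin starts new filaments in muscle, had 23.1, 30.5 and 24.3 CPM on nanotopography, against 16.2, 19.1 and 15.1 CPM on control titanium. Its log2 fold change of 0.62 ± 0.17 (edgeR adjusted p = 0.0319) was 0.47 and not called after adjustment (adjusted p = 0.0952).

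The cytoplasmic actins and Srf did not pass the test in isolated cells. Actb had a log2 fold change of 0.39 ± 0.16 (edgeR adjusted p = 0.105), Actg1 of -0.22 ± 0.23 (0.544) and Srf of 0.29 ± 0.14 (0.177). Acta2 was at 0.47 ± 0.16 (edgeR adjusted p = 0.0621). Each of the 11 calls was lost when some library was left out. There were 0 calls by edgeR without replicate 1 or replicate 2 of isolated cells on control titanium or replicate 3 of isolated cells on nanotopography, 1 without replicate 1 of isolated cells on nanotopography, 6 without replicate 3 of co-culture on nanotopography and 18 without replicate 2 of isolated cells on nanotopography.

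Genes of the same pathways outside the 34 were read from 3 further lists. Their counts stand beside the shares of all tested genes given above for the same comparison and direction, repeated here before and after GC adjustment. No share was computed for an unadjusted p or for DESeq2, so the shares below are of edgeR calls. With osteoclasts on control titanium these were 10.9% higher and 8.72% lower, or 15.5% and 12%, and on nanotopography 28.7% and 30.4%, or 17.6% and 20.8%. For the difference between the surfaces they were 22.4% and 25.4%, or 7.6% and 13%. Of 16 tested partners and targets of SRF, 10 were called higher and 0 lower with osteoclasts on control titanium by edgeR, with 11 higher and 0 lower at an unadjusted p below 0.05 and 10 and 0 by DESeq2. GC-adjusted, edgeR gave 10 and 0, also at an unadjusted p, and the median log2 fold change was 0.50 before and 0.46 after adjustment. The smallest p-values belonged to Lima1 (log2 fold change 0.64 ± 0.10), a LIM protein of actin bundles, Vcl (0.59 ± 0.10), the focal adhesion protein vinculin, and Csrp1 (0.69 ± 0.15), another LIM protein. On nanotopography 6 were called higher and 4 lower with osteoclasts, or 6 and 1 GC-adjusted, with the PDZ-LIM genes Pdlim7 at -1.17 ± 0.14, and Pdlim5 at 0.65 ± 0.10, and with Actn4, an α-actinin, at -0.84 ± 0.12. GC-adjusted these were 0.18, 0.05 and -0.25, and of the 3 only Actn4 was called. For the difference between the surfaces 6 were lower and 1 higher, or 4 and 0 GC-adjusted by edgeR (5 and 0 at an unadjusted p). Pdlim7 had the smallest p there, with a difference of -1.66 ± 0.19, and of -0.49 after adjustment, where it was not called. Zyx, the focal adhesion protein zyxin, had differences of -1.37 ± 0.20 and -0.55 in the 2 fits.

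Of 35 genes of filament turnover, all tested, 5 were called higher and 5 lower with osteoclasts on control titanium, or 11 and 5 GC-adjusted. Before adjustment, both counts are near the shares of all tested genes. Actr3 (log2 fold change 0.61 ± 0.11) rose while Arpc1b (-0.95 ± 0.11) fell, both encoding subunits of the Arp2/3 complex that branches filaments, and Cap1, a monomer recycling factor, rose by 0.62 ± 0.12. On nanotopography 10 were higher and 15 lower with osteoclasts, or 0 and 10 GC-adjusted by edgeR (1 and 13 at an unadjusted p). The count of higher genes before adjustment is at the share of all tested genes. Limk1, the kinase that inactivates cofilin, fell by 1.75 on the log2 scale before and by 0.75 after adjustment, Vasp, an elongation factor, by 1.25 and 0.34, and Tmsb10, a monomer-binding thymosin, by 1.91 and 0.64. For the difference between the surfaces 9 were higher and 14 lower, or 2 and 9 GC-adjusted, and Gsn, the severing protein gelsolin, had differences of -1.65 ± 0.24 and -0.82.

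Of 21 tested genes of small GTPase signalling and myosin control, 2 were called higher and 2 lower with osteoclasts on control titanium, or 5 and 1 GC-adjusted. Before adjustment these counts too are near the shares of all tested genes. Ppp1r14b, an inhibitor of myosin phosphatase, fell by 2.03 on the log2 scale, and Arhgef2, an exchange factor that activates RhoA, rose by 0.85 ± 0.11. On nanotopography 10 were higher and 11 lower with osteoclasts, or 3 and 5 GC-adjusted, and Ppp1r14b fell by 3.02 before and by 0.83 after adjustment. Arhgef1 was at -1.57 ± 0.13 there before adjustment and at -0.29 after it. Dapk3, a kinase of the myosin light chain, fell there by 2.19 and 0.55. For the difference between the surfaces 8 were higher and 10 lower, or 1 and 5 GC-adjusted, with Dapk3 at -2.00 ± 0.26 and -0.70.

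With the surface, all tested genes were called higher and lower in 18.6% and 23.3% of cases in co-culture, or 7.18% and 11% GC-adjusted, and in 4.32% and 5.39% in isolated cells, or 3.19% and 1.48%. In co-culture, nanotopography against control titanium gave 1 gene higher and 6 lower of the SRF list, 7 higher and 12 lower of the turnover list and 6 higher and 8 lower of the GTPase and myosin list. GC-adjusted these were 1 and 4, 1 and 7, and 2 and 3. In isolated cells they were 1 higher and 0 lower (3 and 0 at an unadjusted p below 0.05, 2 and 0 by DESeq2), 2 higher and 4 lower, and 4 higher and 2 lower, of which the thymosin gene Tmsb4x, at -0.54 ± 0.11, was called lower in both fits. GC-adjusted by edgeR, these were 0 and 0 (2 and 0 at an unadjusted p), 1 and 2, and 0 and 0 (7 and 1 at an unadjusted p).

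Markers of other cell types were read beside these results. None of the skeletal muscle regulators Myod1, Myog and Myf5 had a count in any library, and the 12 muscle markers summed to 4.30 to 9.81 CPM over all libraries. Of 8 smooth muscle and pericyte markers, Myocd and Rgs5 had 0 counts in every group. The summed level of those 8 was 386 to 564 CPM in co-culture on nanotopography, against 831 to 886 CPM in isolated cells on nanotopography, and 868 to 1062 CPM in co-culture on control titanium, against 732 to 788 CPM in isolated cells on control titanium. Smtn, Cspg4 and Pdgfrb made up most of each sum. The mean sums had the same order over the 4 groups as the mean levels of Flnc, Flna, Srf, Cnn2 and Myl6. Mean levels of Acta2, Actg2, Tagln and Myl9 had other orders and were lowest in isolated cells on control titanium.

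Of 15 macrophage and osteoclast markers, 15 had counts in co-culture on nanotopography, against 9 in isolated cells on nanotopography, and 14 in co-culture on control titanium, against 8 in isolated cells on control titanium. Their summed level was 175 to 249 CPM in co-culture on nanotopography, against 161 to 180 CPM in isolated cells on nanotopography, and 171 to 189 CPM in co-culture on control titanium, against 170 to 182 CPM in isolated cells on control titanium. Most of each sum was Ctsk. Ptprc, which encodes the leukocyte antigen CD45, had 44 counts in co-culture on nanotopography, against 0 counts for isolated cells there, and 2 counts in co-culture on control titanium, against 0 for isolated cells. Lcp1, a leukocyte actin bundler, had 164 counts in co-culture on nanotopography, against 1 for isolated cells there, and 25 in co-culture on control titanium, against 0 for isolated cells. Not all of these markers were higher in co-culture on control titanium. Fcer1g had 1 count there, against 13 for isolated cells, Cd68 had 17 against 23 and Csf1r 45 against 51. The other markers were not lower in co-culture on control titanium. On nanotopography all 15 had more counts in co-culture. There Fcer1g was at 29 against 12, Cd68 at 78 against 18 and Csf1r at 144 against 38. These counts are not scaled by library totals. The share of macrophage and osteoclast transcripts, or of smooth muscle markers, in the members' results was not tested.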

How the data were processed

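Raw read counts per gene were deposited, with a table for each library. The submitters' processing notes name STAR 2.4, HTSeq, DESeq2, FastQC 0.63 and cutadapt, and the build mm10. Roles, order, annotation and strand setting are not given in the sources used here. Per the labels' protocols, TRIzol RNA of day 7 went into SMARTer libraries. The deposited tables end at different genes, so the 52654 genes complete in all 12 were used, holding at least 99.9236% of each library's counts. Symbols, transcript lengths and GC content came from GENCODE M21 (GRCm38).

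In R 4.3.3, edgeR 4.0.16 with TMM scaling tested the 13340 genes that passed its low-count filter, in a model of 4 group means without a replicate block. It was also run on simulated counts drawn independently for each gene, and that run does not vouch for the calls in these data. P-values were adjusted over all 13340 and called below 0.05. SEs are approximate, from the log2 fold change and its F statistic. CPM used TMM-scaled totals. The GC-adjusted fit removed loess trends (span 0.3) by offsets. The common dispersion was 0.0151, a coefficient of variation of 12.3%. Floors are 3 counts over a group, and the 95% interval is exact. Both cover counting error only, because they rest on counts and totals summed over the libraries of a group. The reads carry no molecular identifiers, so duplicate reads could not be told apart. Members with every library's values are Actb, Actg1, Srf, the 4 with the largest called, non-overlapping change per comparison and the 3 smallest p of the interaction. From other pathway lists up to 3 genes of smallest p were named. Members and lists were chosen with earlier results of these data known. Alternatives were RLE scaling, 2 other low-count filters, DESeq2 1.42.0, the GC adjustment, a replicate block, only the groups compared and leaving out each library.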

Additional observations from a re-analysis of the deposited data

Results flagged for a closer look

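For 22 members the osteoclast effect on nanotopography differed from that on control titanium by the interaction test (edgeR, adjusted over all tested genes), and these are given as the difference on the log2 scale with the GC-adjusted value beside it. Groups of 3 libraries are too small to test for outlying samples. All co-culture nanotopography libraries stood at the low end of the axis that follows GC content, and its part in the differences was not tested beyond the adjustment.

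Among the actins, the difference was -0.86 for Acta2 (GC-adjusted -0.82), -1.24 for Actg2 (-0.72) and -1.04 for Actb (-0.80). For the myosin genes it was -0.92 for Myl9 (0.03), -1.03 for Myh9 (-0.27) and -0.70 for Myl6 (-0.12). Along the thin filament it was -0.97 for Tagln (-0.54), -1.04 for Tagln2 (-0.25), -0.93 for Cnn2 (-0.46), -0.41 for Tpm1 (-0.34), -0.96 for Tpm2 (-0.32), -0.56 for Tpm3 (-0.65) and -0.71 for Lmod1 (-0.24). Cross-linkers and turnover factors had differences of -0.90 for Flna (-0.47), -1.39 for Flnc (-0.55), -0.73 for Cfl1 (-0.51) and -1.24 for Pfn1 (-0.36). Of the regulators, the difference was -1.39 for Srf (-0.10), -0.85 for Rhoa (-1.10), -0.49 for Diaph1 (-0.26), 1.64 for Rock1 (0.43) and 1.32 for Rock2 (0.28). The call was kept after the GC adjustment for 12 of the 22.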

How the results depend on the processing

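A direction is called reversed here when the sign differs and the member was called in at least 1 of the fits compared, so sign changes of members called in neither are not listed. RLE scaling, both other low-count filters, DESeq2 and fitting only the groups compared reversed the direction of 0 members in the comparisons they were run on, and moved each count of called members by less than 1.5 times. Removing the GC and length trend moved the calls from 18 to 8 for the surface in co-culture, from 11 to 7 for the surface in isolated cells and from 22 to 13 for the interaction. Under it the osteoclast effect on nanotopography reversed for Myl6 (0.17), Myl9 (0.86), Myh9 (0.31), Tagln (0.37), Tpm2 (0.23), Tpm4 (-0.34), Cald1 (-0.10), Flnc (0.074) and Srf (0.89), the surface effect in co-culture for Myl9 (0.12) and Myh9 (0.065), and the interaction for Myl9 (0.03) and Mylk (0.37). The cause was not tested.

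No pairing of the libraries by replicate number was seen, though 3 libraries per group cannot show that none existed. Correlations of same-numbered libraries across groups were -0.391 to 0.303, with 6 of 18 above 0.1. Those of differently numbered libraries were -0.429 to 0.401, with 10 of 36 above 0.1. Of the 12 libraries, 4 correlated best with their own number. With the replicate block, 14, 22, 19 and 9 members were called for osteoclasts on control titanium, osteoclasts on nanotopography, the surface in co-culture and the surface in isolated cells, and 23 for the interaction. With the replicate block and the GC trend removed, 6, 5 and 12 were called for the surface in co-culture, the surface in isolated cells and the interaction. In that fit the osteoclast effect on nanotopography reversed for Myl6 (0.17), Myl9 (0.86), Myh9 (0.31), Tagln (0.38), Tpm2 (0.23), Tpm4 (-0.34), Cald1 (-0.10), Flnc (0.074) and Srf (0.89), the surface effect in co-culture for Myl9 (0.12) and Myh9 (0.067), and the interaction for Myl9 (0.029).

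Leaving out each library in turn gave 9 to 16 calls for osteoclasts on control titanium, 18 to 22 for osteoclasts on nanotopography, 14 to 20 for the surface in co-culture, 0 to 18 for the surface in isolated cells and 21 to 24 for the interaction. In the cases with 0 calls, edgeR still gave 14 to 17 members higher at an unadjusted p below 0.05. No share of all tested genes was computed for that rule. Depth limits Acta1, Actc1, Cnn1 and Myl12b, with at most 117 counts in a group.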
